A study of Homo sapiens with 30 samples.

Results

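The genes described here are 32 enzymes and associated proteins that make purine and pyrimidine nucleotides and the folate-bound 1-carbon units used in that synthesis. They were taken by gene symbol from a list, and all 32 of 32 were found among the 25680 symbols of the files and were among the 16408 genes tested. RNA was measured in OPM2 and H929, both human multiple myeloma cell lines, in 4 groups of 3 libraries. The groups were OPM2 with 100 nM dBRD9-A, OPM2 with DMSO, H929 with 100 nM dBRD9-A and H929 with DMSO, each taken after 24 h. dBRD9-A is a small molecule that degrades the bromodomain protein BRD9, which belongs to the non-canonical BAF complex, a chromatin remodeller, and DMSO is its solvent. Another 18 of the 30 samples listed were not analysed here. The comparisons ask how the messenger RNA of these enzymes responded to dBRD9-A in each line, whether the responses differed, and how the lines differed without the compound. Each line stands for the cells of 1 tumour. The labels do not say whether the replicates of a group were grown as separate cultures, and the p-values below reflect only how the libraries varied, possibly for technical reasons.

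Purine nucleotides are built step by step on activated ribose phosphate, which PRPS enzymes supply, until inosine monophosphate is formed and a branch leads to AMP or GMP. Pyrimidine synthesis forms the ring first and attaches it to the ribose afterwards, giving UMP and then CTP. Folate cofactors carry the 1-carbon units that enter the purine ring and thymidylate, and salvage enzymes recycle free bases and nucleosides. Growing tumour cells depend on these routes for RNA and DNA synthesis, and several of the enzymes are drug targets, among them DHODH and the IMPDH enzymes. Many of the genes are known targets of MYC, a transcription factor that drives growth and that can bind the sequence CACGTG with its partner MAX.

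The total per library was 42895389 to 76600945 counts over 1 transcript per gene, except in OPM2 dBRD9-A replicate 2, which had 24524193 counts. That library stood apart: its log2 levels departed from the other libraries of the group with an SD of 0.79 over 9365 genes, against 0.38 and 0.44 for its group mates, whose comparison includes it, and 0.11 to 0.24 for the 9 libraries of the other groups. Its deviations followed transcript GC content (Spearman -0.70 across genes). Those of its group mates had 0.64 and 0.71, but their comparison again includes it, so these values need not be their own. H929 dBRD9-A replicates 1 and 2, which were likewise compared with each other, had -0.63 and 0.65, against -0.46 to 0.41 in the other 7 libraries. Results in OPM2 are therefore given with and without it. Of 10 plasma cell genes, 9 were above 1 CPM (TMM-scaled counts per 1000000) in every OPM2 library and 10 in every H929 library. Their summed level was 6520 to 7590 CPM in OPM2 with dBRD9-A against 11800 to 14100 CPM in OPM2 with DMSO, and 9190 to 10400 CPM in H929 with dBRD9-A against 15600 to 16900 CPM in H929 with DMSO. Most of that gap was IGJ, the joining chain of antibodies, at 2240 to 2700 CPM with dBRD9-A against 6520 to 8060 CPM with DMSO in OPM2 and 3960 to 4930 CPM with dBRD9-A against 9380 to 10100 CPM with DMSO in H929. SLAMF7 and MZB1 were lower with dBRD9-A in both lines. SLAMF7 had 135 to 164 CPM against 454 to 496 CPM with DMSO in OPM2, and 74.8 to 97 CPM against 110 to 156 CPM in H929. MZB1 had 46.3 to 85.3 CPM against 193 to 217 CPM in OPM2, and 490 to 605 CPM against 650 to 730 CPM in H929. IRF4 was lower in OPM2 (1050 to 1380 CPM, against 1690 to 2070 CPM with DMSO). In H929 IRF4 had 593 to 1070 CPM, against 1070 to 1570 CPM, so that the groups met at their edges. TNFRSF17 was lower in H929 (370 to 493 CPM, against 513 to 632 CPM) and overlapped between groups in OPM2. XBP1 was higher with dBRD9-A in OPM2 (1650 to 1830 CPM, against 1350 to 1560 CPM with DMSO). In H929 XBP1 was slightly lower (2040 to 2260 CPM, against 2270 to 2330 CPM). FCRL5 was higher with dBRD9-A in H929 (3.97 to 5.25 CPM, against 2.84 to 3.47 CPM with DMSO). In OPM2 FCRL5 was under 1 CPM and overlapped between groups. SDC1, CD38 and PRDM1 overlapped between groups in both lines. The 4 B cell genes summed to at most 1.27 CPM in any library. Of the 4 T and NK cell genes only CD3E was above 1 CPM in every H929 library, at 36.3 to 39.3 CPM with dBRD9-A and 23.2 to 25.5 CPM with DMSO. In H929 the 4 myeloid genes summed to 5.08 to 10.5 CPM with dBRD9-A against 1.55 to 4.1 CPM with DMSO, nearly all of it CSF1R, and the 4 stromal and epithelial genes to 5.39 to 9.27 CPM with dBRD9-A against 2.31 to 3.51 CPM with DMSO, while in OPM2 either sum was at most 0.739 CPM. The part of these markers in the results was not tested. BRD9 transcript was 67.1 to 81.0 CPM with dBRD9-A against 85.9 to 93.9 CPM with DMSO in OPM2, and 59.2 to 71.5 CPM with dBRD9-A against 79.9 to 103 CPM with DMSO in H929. The compound acts on BRD9 protein, so these levels check no label.

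With dBRD9-A, every gene of the list that passed the test in either line fell there, apart from CTPS2 in OPM2. In OPM2 17 of the 32 fell and CTPS2 rose, at an adjusted p under 0.05 in edgeR's quasi-likelihood test, while 14 were not called. Among all genes tested in OPM2 7.34% fell and 10.1% rose. In H929 13 of the 32 fell, none rose and 19 were not called, against 5.67% of all genes that fell and 7.33% that rose. The median log2 fold change of the 32 genes was -0.48 in OPM2, against 0.03 over all genes tested, and -0.43 in H929, against 0.00 over all genes. The change was below 0 for 29 genes in H929 and for 26 of 31 in OPM2 when AK4, too scarce there for a fold change, is left out (median -0.46). In H929 CTPS2 had a positive log2 fold change without passing the test with all libraries. In bulk RNA, fewer cells of a kind and less RNA per cell cannot be told apart.

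The same 11 genes fell in both lines, where 3.19% of all genes tested did: PPAT, PAICS, ADSL, IMPDH2, CTPS1, PRPS2, UCK2, NME1, DUT, MTHFD1 and MTHFD1L. PFAS, ATIC, IMPDH1, CAD, UMPS and PRPS1 passed the test in OPM2 and not in H929, and GART and AK4 passed it in H929 and not in OPM2. All 3 libraries with dBRD9-A lay below all 3 with DMSO for 21 of the 32 genes in OPM2, against 18.9% of all genes, and for 22 in H929, against 23.6%. They lay above them for CTPS2 and DHODH in OPM2, against 18.8% of all genes, and for CTPS2 in H929, against 22.0%. The list holds well expressed genes, so calls were also counted among the 7617 genes with a mean of at least 20 CPM, a choice made after the values were seen. There 11.2% fell and 7.76% rose in OPM2, 8.59% fell and 5.04% rose in H929, and of the 30 listed genes at that level 17 and 12 fell. MYC also fell in both lines, with 96.6 to 134 CPM with dBRD9-A against 284 to 296 CPM with DMSO in OPM2 (log2 fold change -1.33, edgeR adjusted p 0.00544). In H929 MYC was 46.2 to 87.9 CPM with dBRD9-A against 139 to 282 CPM with DMSO (log2 fold change -1.72, edgeR adjusted p 0.00183). The part of MYC in the changes of the nucleotide genes was not tested.

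The counts of called genes moved with single libraries. Without OPM2 dBRD9-A replicate 2, 21 of the 32 genes fell and CTPS2 rose in OPM2, where 15.6% of all genes fell, and 22 fell and CTPS2 rose in H929, where 16.5% fell. The number that fell in both lines was then 18. The share of all genes that fell in both lines was not taken for this or any other alternative fit, so these counts have no background beside them. In that fit, as in the one with all libraries, 1 spread per gene was estimated over both lines. Without OPM2 DMSO replicate 1, 2 or 3 the number that fell in OPM2 was 10, 9 and 9, against 3.24 to 3.64% of all genes, without OPM2 dBRD9-A replicate 1 it was 11, against 5.19%, and without H929 DMSO replicate 2 the number in H929 was 7, against 1.38%. The number that fell in both lines was 7, 6 and 6 without OPM2 DMSO replicate 1, 2 or 3, 6 and 7 without H929 DMSO replicate 2 or 3, and 7 without H929 dBRD9-A replicate 1. Across all 24 alternatives, which include every library left out, 8 of the 18 calls in OPM2 were kept, those of PPAT, PAICS, IMPDH2, PRPS1, UCK2, NME1, MTHFD1 and MTHFD1L. In H929 7 of the 13 were kept, those of PPAT, GART, PAICS, IMPDH2, CTPS1, MTHFD1 and MTHFD1L.

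**Figure D1:**
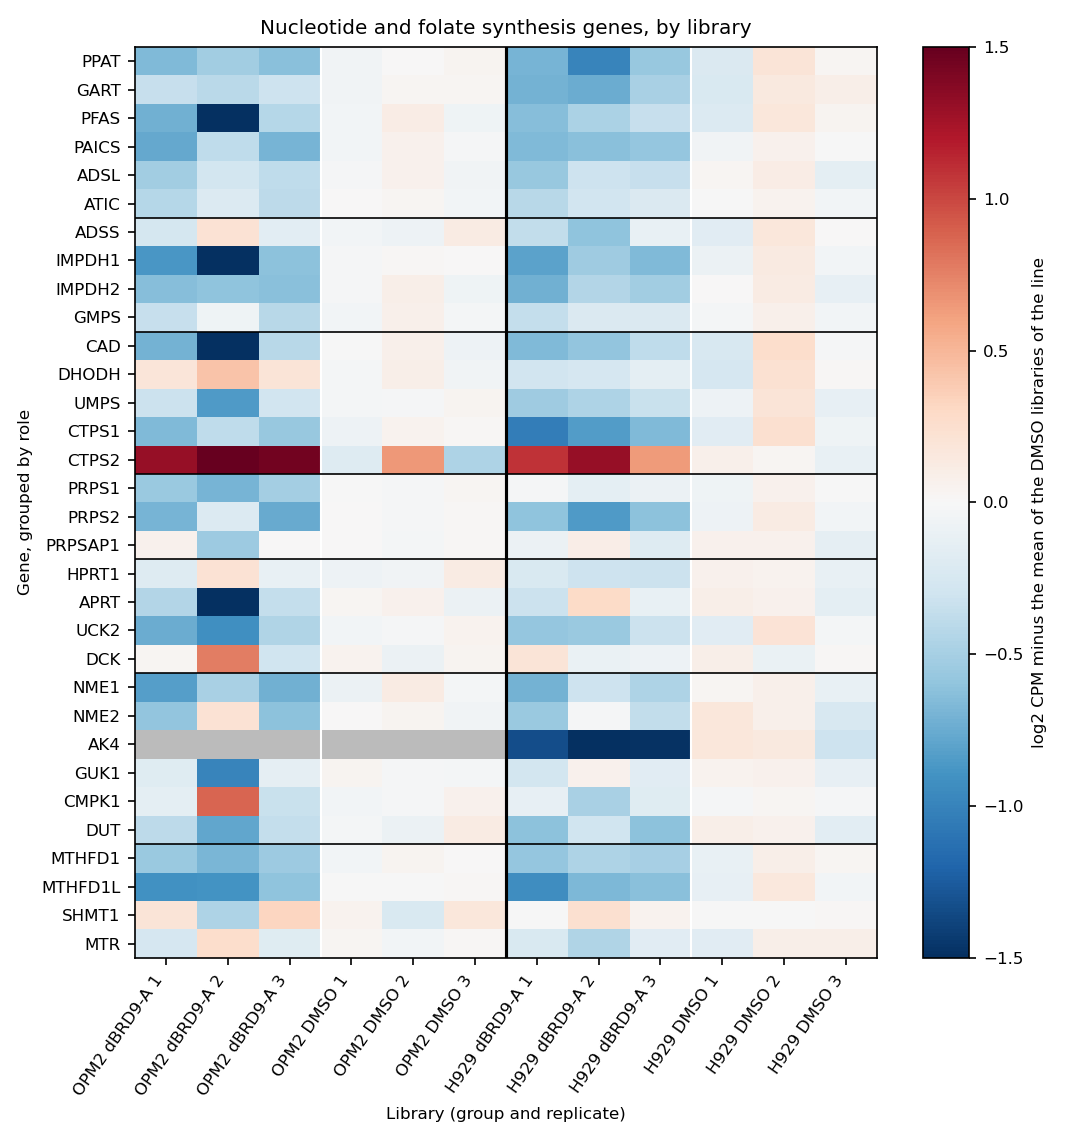
Each row is 1 gene and each column 1 library, with dBRD9-A left of DMSO within each line; colour is the log2 CPM minus the mean of the line's 3 DMSO libraries, limited to 1.5 in either direction. Blue dominates the columns with dBRD9-A, where 21 genes in OPM2 and 22 in H929 lie below all DMSO libraries, CTPS2 is red in both lines, OPM2 dBRD9-A replicate 2 differs from its group mates for PFAS, IMPDH1, CAD, APRT, DCK and CMPK1, and AK4 in OPM2 is grey because it had at most 7 counts.

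Promoter sequence was read for genes that moved together. RefSeq promoter windows of 300 bases on GRCh38.p14, from 250 before to 50 after a start site, were found for 30 of the 32 genes, all but ADSL and IMPDH2. The letters CACGTG, which read the same on both strands, stood in at least 1 window of 9 of these genes: PPAT, PAICS, ATIC, DHODH, DCK, NME1, AK4, MTHFD1 and MTHFD1L. That is 30.0% of the 30 genes, against 8.77% of the 27305 genes of the table, and 12 of their 52 windows held it, against 7.26% of 35116 windows. These are not counts of separate sites, because PPAT and PAICS share 1 and overlapping windows of MTHFD1L hold the same one. The shares of the table are not limited to genes tested here. The windows of the nucleotide genes had a median GC content of 67.8%, against 58.7% over all windows, and no allowance for this was made. Of the 9 genes with the motif 7 fell in at least 1 line and 5 in both, and of the 21 without it 10 fell in at least 1 line and 4 in both, a count given with no test. PPAT and PAICS are both among the 5 although they share 1 site. The shares of all genes with and without the motif that fell were not taken, so no difference by motif can be read from these counts. DHODH and DCK hold the motif and were called in neither line, and CTPS1, PRPS2, UCK2 and DUT fell in both lines and have no CACGTG in these windows. A match is a description of letters and shows no binding. PPAT and PAICS, which catalyse the first committed step and a later step of the purine ring, are shown because they start 137 bases apart on opposite strands of chromosome 4, at 56435615 and 56435752, so that their windows overlap by 236 bases. Their single shared CACGTG lies at 56435792-56435797, 40 bases after the start of PAICS and 177 bases before the start of PPAT. The windows of ATIC, MTHFD1, MTHFD1L and NME1 are shown because they hold the motif and the genes fell in OPM2. AK4, which fell in H929, holds it in 2 windows that are not printed. Each is written 5′ to 3′ in lower case with CACGTG in capitals.
PAICS, chr4:56435502-56435801, plus strand: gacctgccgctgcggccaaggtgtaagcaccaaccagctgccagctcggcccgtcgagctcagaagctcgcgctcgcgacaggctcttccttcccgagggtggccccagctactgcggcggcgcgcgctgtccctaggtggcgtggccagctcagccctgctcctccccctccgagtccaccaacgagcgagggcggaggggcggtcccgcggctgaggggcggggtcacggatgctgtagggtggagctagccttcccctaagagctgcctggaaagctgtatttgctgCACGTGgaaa
ATIC, chr2:215311809-215312108, plus strand: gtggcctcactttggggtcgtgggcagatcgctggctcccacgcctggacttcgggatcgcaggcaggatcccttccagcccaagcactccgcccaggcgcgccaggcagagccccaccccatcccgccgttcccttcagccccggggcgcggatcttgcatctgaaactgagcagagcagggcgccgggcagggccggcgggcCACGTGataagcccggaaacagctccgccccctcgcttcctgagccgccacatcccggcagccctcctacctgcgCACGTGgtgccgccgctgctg
MTHFD1, chr14:64388103-64388402, plus strand: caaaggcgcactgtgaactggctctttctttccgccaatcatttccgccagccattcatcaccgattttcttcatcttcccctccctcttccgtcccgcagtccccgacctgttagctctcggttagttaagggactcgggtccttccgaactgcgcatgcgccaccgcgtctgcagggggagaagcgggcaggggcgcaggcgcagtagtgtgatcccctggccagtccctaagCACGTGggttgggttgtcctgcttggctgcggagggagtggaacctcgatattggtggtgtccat
MTHFD1L, chr6:150866236-150866535, plus strand: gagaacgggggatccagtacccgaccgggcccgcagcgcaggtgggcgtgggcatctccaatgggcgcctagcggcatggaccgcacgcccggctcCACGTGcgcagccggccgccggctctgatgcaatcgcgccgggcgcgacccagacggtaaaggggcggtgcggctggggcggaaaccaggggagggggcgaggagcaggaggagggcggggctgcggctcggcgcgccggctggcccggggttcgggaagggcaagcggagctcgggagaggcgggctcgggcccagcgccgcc
NME1, chr17:51153309-51153608, plus strand: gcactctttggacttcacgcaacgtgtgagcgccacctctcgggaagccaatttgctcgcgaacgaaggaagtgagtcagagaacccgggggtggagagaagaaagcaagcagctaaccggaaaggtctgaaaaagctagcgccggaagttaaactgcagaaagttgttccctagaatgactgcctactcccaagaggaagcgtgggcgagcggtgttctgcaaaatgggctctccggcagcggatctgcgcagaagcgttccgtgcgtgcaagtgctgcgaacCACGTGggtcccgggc
ATIC holds the motif 2 times, with first bases at -46 and 29 from its start site, and the other windows shown hold it 1 time.

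The 6 enzymes that assemble the purine ring had log2 fold changes below 0 in both lines, and 5 of them fell in OPM2 and 4 in H929. PPAT, the amidotransferase of the first committed step, had 82.5, 91 and 84.5 CPM in OPM2 with dBRD9-A, against 126, 131 and 134 CPM in OPM2 with DMSO. It had 81.8, 67 and 89.2 CPM in H929 with dBRD9-A, against 114, 152 and 135 CPM in H929 with DMSO. The groups did not overlap in either line, and PPAT was 1.52-fold lower in OPM2 (log2 fold change -0.60, SE 0.13, edgeR adjusted p 0.00956) and 1.69-fold lower in H929 (-0.76, SE 0.13, adjusted p 0.00355). PAICS, a bifunctional enzyme of the middle of the pathway whose promoter region is the one it shares with PPAT, had 493, 645 and 516 CPM in OPM2 with dBRD9-A, against 814, 875 and 828 CPM in OPM2 with DMSO. It had 349, 356 and 368 CPM in H929 with dBRD9-A, against 529, 574 and 548 CPM in H929 with DMSO. PAICS had the highest level per length of the ring enzymes, with 152 TPM in H929 and 260 TPM in OPM2 with DMSO. It fell 1.52-fold in OPM2 (log2 -0.61, SE 0.11, edgeR adjusted p 0.00438; -0.75 without replicate 2) and 1.54-fold in H929 (log2 -0.62, SE 0.11, adjusted p 0.00454).

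GART, a trifunctional enzyme that includes a folate-dependent formyl transfer, had 128, 123 and 131 CPM in OPM2 with dBRD9-A, against 157, 165 and 165 CPM in OPM2 with DMSO. It had 84, 81.7 and 97.8 CPM in H929 with dBRD9-A, against 117, 151 and 145 CPM in H929 with DMSO. Neither pair of groups overlapped, but the change passed the test only in H929 (log2 -0.65, SE 0.12, edgeR adjusted p 0.00405), against -0.35 (SE 0.12, adjusted p 0.0528) in OPM2. In OPM2 GART was called without OPM2 dBRD9-A replicate 2 (adjusted p 0.0236), H929 DMSO replicate 1 (0.032) or H929 dBRD9-A replicate 2 or 3 (0.0438 and 0.0423). PFAS, the amidotransferase that acts between reactions of GART, had 128, 69.9 and 157 CPM in OPM2 with dBRD9-A, against 205, 228 and 202 CPM in OPM2 with DMSO. It had 82.9, 93.3 and 102 CPM in H929 with dBRD9-A, against 112, 146 and 133 CPM in H929 with DMSO. PFAS was lower in every library with dBRD9-A, and lowest in OPM2 dBRD9-A replicate 2, with log2 fold changes of -0.84 (SE 0.23, edgeR adjusted p 0.0257) in OPM2 and -0.49 (SE 0.23, adjusted p 0.186) in H929. Without that replicate the OPM2 value was -0.59 (adjusted p 0.00222), and without OPM2 DMSO replicate 1, 2 or 3 the call was lost (adjusted p 0.0637 to 0.0915). In H929 PFAS passed the test when OPM2 dBRD9-A replicate 2 was left out (adjusted p 0.00452).

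ADSL, which acts both in the ring pathway and on the way to AMP, had 75.6, 89.7 and 83.7 CPM in OPM2 with dBRD9-A, against 107, 114 and 105 CPM in OPM2 with DMSO. It had 74.6, 89.3 and 87.1 CPM in H929 with dBRD9-A, against 113, 120 and 99.9 CPM in H929 with DMSO. The fall was small in both lines, with groups that did not overlap, at -0.39 (SE 0.11, edgeR adjusted p 0.0358) in OPM2 and -0.41 (SE 0.11, adjusted p 0.0348) in H929. ADSL lost its call without any OPM2 DMSO library or without OPM2 dBRD9-A replicate 1 in OPM2, and in 9 of the 12 fits with a library left out in H929 (adjusted p up to 0.121 in OPM2 and 0.18 in H929). ATIC, which closes the ring with another formyl transfer, had 93.5, 109 and 95.3 CPM in OPM2 with dBRD9-A, against 126, 128 and 122 CPM in OPM2 with DMSO. It had 135, 147 and 155 CPM in H929 with dBRD9-A, against 179, 186 and 174 CPM in H929 with DMSO. Its groups did not overlap either, and the changes were -0.34 (SE 0.10, edgeR adjusted p 0.0355) in OPM2 and -0.30 (SE 0.10, adjusted p 0.0638) in H929. The OPM2 call of ATIC was lost in 5 of the 12 fits with a library left out, those without an OPM2 DMSO library or without OPM2 dBRD9-A replicate 1 or 3 (adjusted p up to 0.11), and ATIC was called in H929 without OPM2 dBRD9-A replicate 2 (adjusted p 0.00956).

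**Figure D2:**
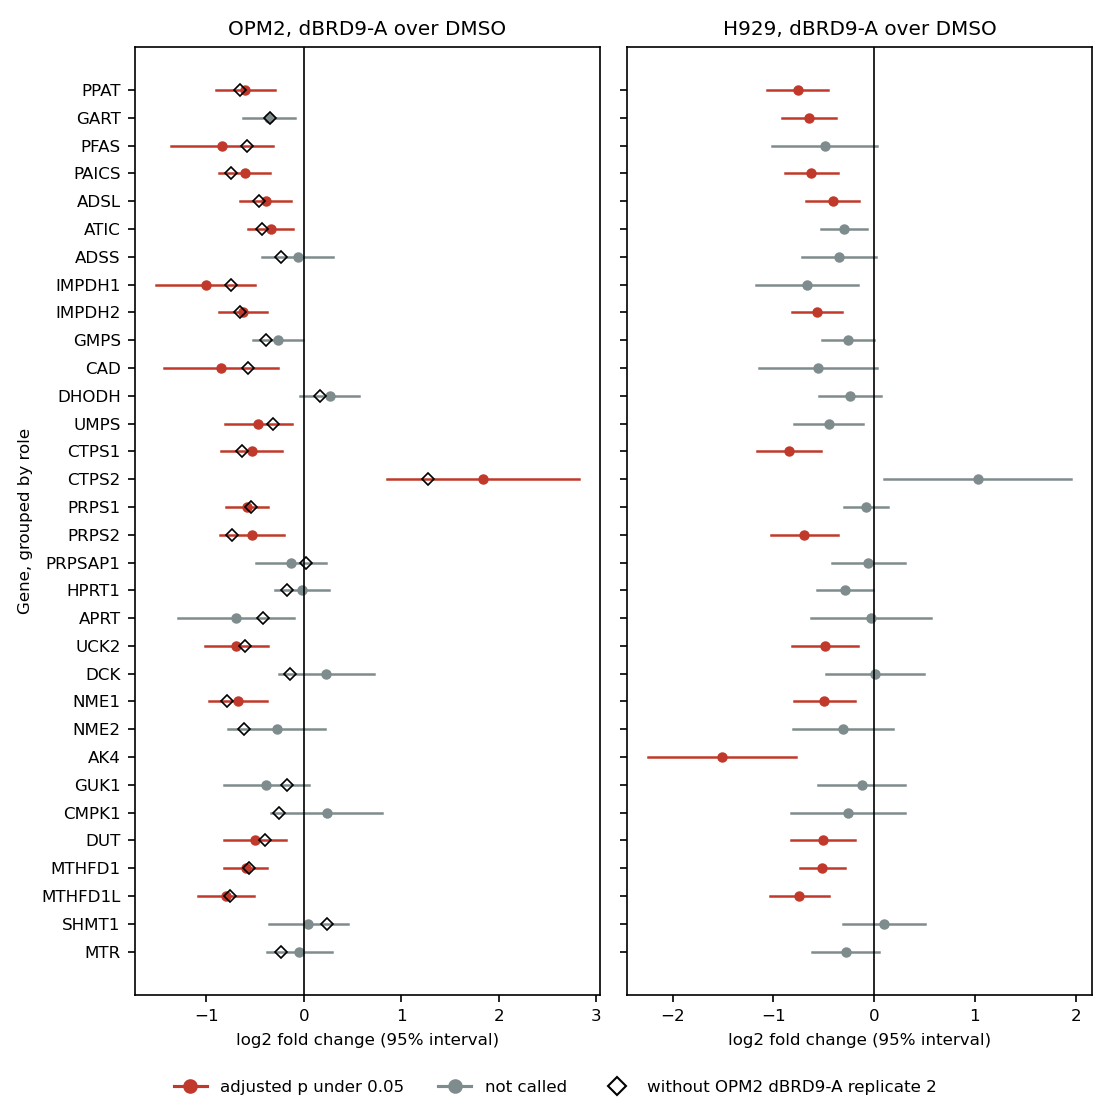
Points are log2 fold changes of dBRD9-A over DMSO with 95% intervals for the 32 genes, OPM2 on the left and H929 on the right; red marks an adjusted p under 0.05, grey no call, and open diamonds the OPM2 value without dBRD9-A replicate 2. Most points lie left of 0 in both panels, CTPS2 lies to the right at 1.84 in OPM2 and 1.03 in H929, and AK4 is left out of the OPM2 panel.

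Of the 4 enzymes of the AMP and GMP branches, both IMPDH genes fell in OPM2 and IMPDH2 in H929. IMPDH2, the main isoform of the rate-limiting enzyme of guanine nucleotide synthesis, had 287, 296 and 290 CPM in OPM2 with dBRD9-A, against 442, 477 and 428 CPM in OPM2 with DMSO. It had 417, 507 and 478 CPM in H929 with dBRD9-A, against 689, 747 and 634 CPM in H929 with DMSO. IMPDH2 was lower in all libraries with dBRD9-A, by 1.54-fold in OPM2 (log2 -0.63, SE 0.11, edgeR adjusted p 0.00272) and 1.48-fold in H929 (log2 -0.56, SE 0.11, adjusted p 0.00574). IMPDH1, the isoform that many resting cells use, had 73.9, 39.4 and 87.8 CPM in OPM2 with dBRD9-A, against 133, 137 and 135 CPM in OPM2 with DMSO. It had 47.8, 57.4 and 52.7 CPM in H929 with dBRD9-A, against 78.3, 91.2 and 81.2 CPM in H929 with DMSO. IMPDH1 was lower in all libraries with dBRD9-A, with a log2 fold change of -1.01 (SE 0.22, edgeR adjusted p 0.0094) in OPM2, -0.75 there without replicate 2 (adjusted p 7.37e-05), and -0.67 (SE 0.22, adjusted p 0.0644) in H929. The H929 change of IMPDH1 was called without OPM2 dBRD9-A replicate 2 (adjusted p 9.03e-05) or replicate 3 (adjusted p 0.0359). ADSS, now named ADSS2, which commits IMP to AMP, and GMPS, which completes GMP, were called in neither line, with log2 fold changes of -0.06 and -0.26 in OPM2 and of -0.35 and -0.26 in H929. Without OPM2 dBRD9-A replicate 2, GMPS fell in both lines (adjusted p 0.00222 in OPM2 and 0.0227 in H929) and ADSS in H929 (adjusted p 0.0441).

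Of the 5 enzymes of pyrimidine synthesis, CAD, UMPS and CTPS1 fell in OPM2, CTPS1 fell in H929, and CTPS2 moved the other way. CTPS1, a CTP synthase known for its need in dividing lymphocytes, had 104, 127 and 111 CPM in OPM2 with dBRD9-A, against 157, 171 and 167 CPM in OPM2 with DMSO. It had 92.5, 106 and 120 CPM in H929 with dBRD9-A, against 168, 224 and 181 CPM in H929 with DMSO. CTPS1 showed no overlap between groups, and its fall was 1.45-fold in OPM2 (log2 -0.53, SE 0.14, edgeR adjusted p 0.0199) and 1.80-fold in H929 (log2 -0.84, SE 0.14, adjusted p 0.00248). The OPM2 call was lost without OPM2 DMSO replicate 2 or 3 or OPM2 dBRD9-A replicate 1 (adjusted p 0.0626 to 0.0705).

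CTPS2, the second CTP synthase, was scarce. Its counts were 51, 50 and 55 in OPM2 with dBRD9-A, against 17, 35 and 17 in OPM2 with DMSO. In H929 they were 65, 67 and 58 with dBRD9-A, against 41, 36 and 32 with DMSO. Scaled to depth, CTPS2 had 0.754, 2.11 and 0.83 CPM in OPM2 with dBRD9-A, against 0.267, 0.48 and 0.221 CPM in OPM2 with DMSO. It had 1.33, 1.55 and 0.976 CPM in H929 with dBRD9-A, against 0.661, 0.641 and 0.578 CPM in H929 with DMSO. All libraries with dBRD9-A were higher than all with DMSO, and OPM2 dBRD9-A replicate 2 was far above its group mates. The log2 fold change was 1.84 in OPM2 (SE 0.43, edgeR adjusted p 0.0126), 1.28 there without replicate 2 (adjusted p 0.00653), and 1.03 in H929 (SE 0.40, adjusted p 0.116). The OPM2 call was lost without OPM2 DMSO replicate 1 (adjusted p 0.0538) or replicate 3 (adjusted p 0.0588), and the H929 change was called without OPM2 dBRD9-A replicate 2 (adjusted p 0.00703).

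CAD, which carries the opening steps of pyrimidine synthesis, averaged 80.4 ± 33.3 CPM with dBRD9-A and 145 ± 7.47 CPM with DMSO in OPM2 (SD, n = 3 each). In H929 CAD averaged 132 ± 13.4 CPM with dBRD9-A and 194 ± 34.2 CPM with DMSO (SD, n = 3 each). Its log2 fold changes were -0.85 in OPM2 (edgeR adjusted p 0.0389; -0.57 without replicate 2) and -0.56 in H929 (adjusted p 0.179). UMPS, which forms UMP, was represented by a transcript that RefSeq lists as non-coding, so its values need not be those of the coding form. UMPS averaged 67.4 ± 13.7 CPM with dBRD9-A and 93 ± 2.15 CPM with DMSO in OPM2 and 61.3 ± 4.34 CPM with dBRD9-A and 83.9 ± 10.3 CPM with DMSO in H929 (SD, n = 3 each). Its log2 fold changes were -0.46 in OPM2 (edgeR adjusted p 0.049), -0.32 there without replicate 2 (adjusted p 0.0211), and -0.45 in H929 (adjusted p 0.0641). The OPM2 call was lost in 8 of the 12 fits with a library left out for CAD (adjusted p up to 0.114) and in 10 of 12 for UMPS (up to 0.132), and both genes fell in H929 without OPM2 dBRD9-A replicate 2 (adjusted p 0.00295 and 0.00172). DHODH, the mitochondrial enzyme between CAD and UMPS, was the only gene of the list besides CTPS2 whose OPM2 libraries with dBRD9-A all lay above those with DMSO, at 49 ± 4.84 CPM with dBRD9-A and 40.7 ± 2.05 CPM with DMSO (SD, n = 3 each), but it was not called (log2 0.27, 95% interval -0.04 to 0.57). In H929 DHODH had 22.3 ± 1.08 CPM with dBRD9-A and 26.3 ± 4.39 CPM with DMSO (SD, n = 3 each; log2 -0.24, 95% interval -0.54 to 0.07).

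**Figure D3:**
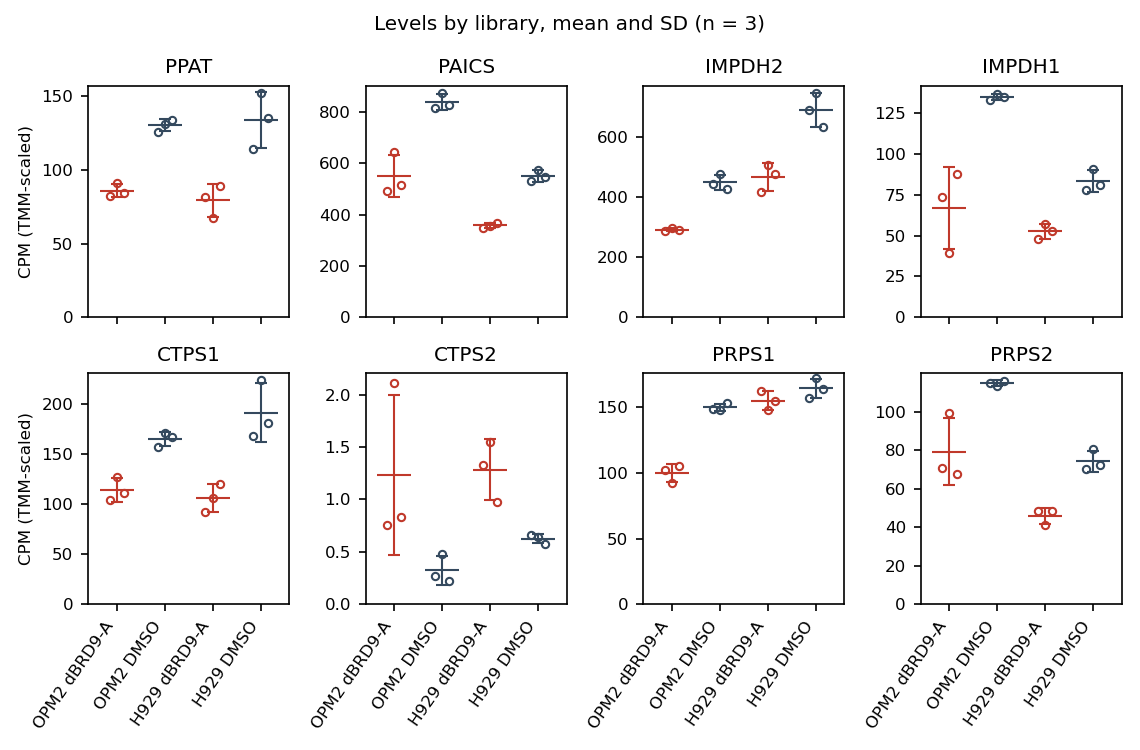
Open circles are libraries, bars their mean and SD in TMM-scaled CPM from 0, in red with dBRD9-A and in dark blue with DMSO, for 8 genes of the pairs compared. PPAT, PAICS, IMPDH2, IMPDH1, CTPS1 and PRPS2 are lower with dBRD9-A in both lines, CTPS2 is higher, and PRPS1 has 92.2 to 105 CPM with dBRD9-A in OPM2 but 148 to 162 CPM in H929.

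Of the 3 genes of ribose phosphate supply, PRPS1 and PRPS2 fell in OPM2 and PRPS2 in H929. PRPS1, one of the synthetases of phosphoribosyl pyrophosphate, had 102, 92.2 and 105 CPM in OPM2 with dBRD9-A, against 149, 148 and 153 CPM in OPM2 with DMSO. It had 162, 148 and 155 CPM in H929 with dBRD9-A, against 157, 172 and 164 CPM in H929 with DMSO. The OPM2 groups lay far apart (log2 -0.58, SE 0.09, edgeR adjusted p 0.00184), whereas the H929 groups overlapped (log2 -0.08, 95% interval -0.30 to 0.13, adjusted p 0.635). PRPS2, its paralogue, had 70.8, 99.2 and 67.7 CPM in OPM2 with dBRD9-A, against 115, 113 and 116 CPM in OPM2 with DMSO. It had 48.6, 41.1 and 48.2 CPM in H929 with dBRD9-A, against 70, 80.5 and 72.1 CPM in H929 with DMSO. PRPS2 did not overlap between groups and fell by 0.53 on the log2 scale in OPM2 (SE 0.14, edgeR adjusted p 0.0247; -0.74 without replicate 2) and by 0.69 in H929 (SE 0.14, adjusted p 0.00901). The PRPS2 call was lost in OPM2 without any OPM2 DMSO library or without OPM2 dBRD9-A replicate 1 or 3 (adjusted p 0.0542 to 0.0735), and in H929 without H929 DMSO replicate 2 (adjusted p 0.0502). PRPSAP1, a protein that associates with these synthetases, was called in neither line (log2 -0.13 in OPM2 and -0.06 in H929).

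Among the 4 salvage enzymes only UCK2 passed the test. UCK2, a kinase that recycles uridine and cytidine, had 192, 170 and 236 CPM in OPM2 with dBRD9-A, against 312, 319 and 335 CPM in OPM2 with DMSO. It had 166, 169 and 198 CPM in H929 with dBRD9-A, against 220, 286 and 242 CPM in H929 with DMSO. UCK2 was lower in all libraries with dBRD9-A, by 1.62-fold in OPM2 (log2 -0.69, SE 0.14, edgeR adjusted p 0.00675) and 1.40-fold in H929 (log2 -0.49, SE 0.14, adjusted p 0.0397), and the H929 call was lost in 9 of the 12 fits with a library left out (adjusted p up to 0.242). APRT, which salvages adenine, had 114, 51.7 and 121 CPM in OPM2 with dBRD9-A, against 158, 162 and 146 CPM in OPM2 with DMSO. It had 60, 91.5 and 69.4 CPM in H929 with dBRD9-A, against 79.8, 78.4 and 67.7 CPM in H929 with DMSO. In OPM2 the groups did not overlap but OPM2 dBRD9-A replicate 2 lay far below the rest, and the log2 fold change was -0.70 (SE 0.26, edgeR adjusted p 0.081), or -0.41 without it (adjusted p 0.029) and -0.91 without replicate 3 (adjusted p 0.0369), while the H929 groups overlapped (log2 -0.03). HPRT1, which salvages hypoxanthine and guanine, had log2 fold changes of -0.02 in OPM2 and -0.29 in H929, and DCK, the deoxycytidine kinase, of 0.23 and 0.01. Neither was called with all libraries, and HPRT1 was called in H929 without OPM2 dBRD9-A replicate 2 (adjusted p 0.0204).

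Of the 5 nucleotide kinases and the dUTPase, NME1 and DUT fell in both lines and AK4 in H929. NME1, a nucleoside diphosphate kinase, had 96.8, 123 and 104 CPM in OPM2 with dBRD9-A, against 161, 187 and 168 CPM in OPM2 with DMSO. It had 114, 150 and 135 CPM in H929 with dBRD9-A, against 191, 197 and 173 CPM in H929 with DMSO. NME1 did not overlap between groups and fell 1.60-fold in OPM2 (log2 -0.68, SE 0.13, edgeR adjusted p 0.00514) and 1.41-fold in H929 (log2 -0.49, SE 0.13, adjusted p 0.0273), with the H929 call lost without any H929 DMSO library or without H929 dBRD9-A replicate 1 or 3 (adjusted p 0.0574 to 0.138). NME2, its neighbour and near copy, had 210, 368 and 206 CPM in OPM2 with dBRD9-A, against 318, 325 and 306 CPM in OPM2 with DMSO. It had 192, 278 and 218 CPM in H929 with dBRD9-A, against 316, 297 and 238 CPM in H929 with DMSO. OPM2 dBRD9-A replicate 2 was above and its group mates below the DMSO libraries, and NME2 was not called with it (log2 -0.28, edgeR adjusted p 0.397) but was called without it (log2 -0.62, adjusted p 0.00322), while the H929 groups overlapped (log2 -0.31, adjusted p 0.403). A readthrough transcript, NME1-NME2, overlaps both genes and had 87.7 to 95% of their summed counts. The files do not say how reads shared by these near copies were assigned, and the levels of both genes are uncertain.

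DUT, which removes dUTP and so keeps uracil out of DNA, had 90.3, 69.4 and 92.6 CPM in OPM2 with dBRD9-A, against 116, 112 and 129 CPM in OPM2 with DMSO. It had 70, 86.7 and 69.8 CPM in H929 with dBRD9-A, against 114, 112 and 95.9 CPM in H929 with DMSO. DUT was lower in all libraries with dBRD9-A, by 0.50 in OPM2 (log2 fold change -0.50, SE 0.14, edgeR adjusted p 0.028) and by 0.51 in H929 (-0.51, SE 0.14, adjusted p 0.0324). The call was lost without OPM2 DMSO replicate 1, 2 or 3 in OPM2 (adjusted p 0.0601 to 0.108) and in 7 of the 12 fits with a library left out in H929 (up to 0.17). AK4, a mitochondrial adenylate kinase, had 132, 91 and 145 counts in H929 with dBRD9-A, against 474, 422 and 304 in H929 with DMSO. This was the widest change of the 13 calls in H929, with 2.71, 2.1 and 2.44 CPM in H929 with dBRD9-A, against 7.64, 7.51 and 5.49 CPM in H929 with DMSO, a log2 fold change of -1.51 (SE 0.32, edgeR adjusted p 0.00951). The AK4 call was lost without H929 DMSO replicate 2 (adjusted p 0.0574) or H929 dBRD9-A replicate 2 (adjusted p 0.0549). In OPM2 AK4 had 0, 0 and 3 counts with dBRD9-A and 7, 4 and 1 with DMSO, too few for a fold change. GUK1, the guanylate kinase, and CMPK1, the UMP and CMP kinase, were called in neither line, with log2 fold changes of -0.38 and 0.24 in OPM2 and of -0.12 and -0.26 in H929, and CMPK1 in OPM2 became -0.25 without replicate 2.

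In the folate cycle MTHFD1 and MTHFD1L fell in both lines. MTHFD1, the cytosolic enzyme that makes the formyl folate used in purine synthesis, had 112, 103 and 113 CPM in OPM2 with dBRD9-A, against 160, 170 and 166 CPM in OPM2 with DMSO. It had 167, 181 and 176 CPM in H929 with dBRD9-A, against 230, 265 and 253 CPM in H929 with DMSO. The groups of MTHFD1 were well separated, with a fall of 1.51-fold in OPM2 (log2 -0.60, SE 0.10, edgeR adjusted p 0.00185) and 1.43-fold in H929 (log2 -0.51, SE 0.10, adjusted p 0.00515). MTHFD1L, the mitochondrial enzyme that releases formate for the cytosol, had 49, 49.5 and 61 CPM in OPM2 with dBRD9-A, against 91.8, 91.8 and 93.4 CPM in OPM2 with DMSO. It had 45.1, 54 and 55.6 CPM in H929 with dBRD9-A, against 78.8, 96.1 and 83.8 CPM in H929 with DMSO. MTHFD1L was lower in all libraries with dBRD9-A, 1.74-fold in OPM2 (log2 -0.80, SE 0.13, edgeR adjusted p 0.0017) and 1.67-fold in H929 (log2 -0.74, SE 0.13, adjusted p 0.00316). Both genes hold CACGTG in the windows shown above. SHMT1, the cytosolic serine hydroxymethyltransferase, had 125, 79.3 and 136 CPM in OPM2 with dBRD9-A, against 113, 92.9 and 123 CPM in OPM2 with DMSO. It had 47.4, 55.9 and 49.2 CPM in H929 with dBRD9-A, against 47.1, 47.3 and 48 CPM in H929 with DMSO. SHMT1 overlapped between groups in both lines and was not called (log2 0.05 in OPM2 and 0.10 in H929), and neither was MTR, the methionine synthase that returns methyl folate to the cycle (log2 -0.05 and -0.28), although MTR was called in H929 without OPM2 dBRD9-A replicate 2 (adjusted p 0.0412).

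Pairs of related genes were compared as a ratio within each library, which needs no scaling between libraries. The change of each log2 ratio over both lines was tested with a two-sided exact permutation test, with treatment labels permuted within each line over 400 relabellings, so that the smallest possible p is 0.005, and adjusted over the 5 pairs. The number of CTPS1 counts per CTPS2 count was 137, 60 and 133 in OPM2 with dBRD9-A, against 579, 353 and 747 with DMSO. In H929 it was 69.1, 68.5 and 123 with dBRD9-A, against 253, 347 and 311 with DMSO. All 6 libraries with dBRD9-A lay below all 6 with DMSO, and the log2 ratio was lower by 2.38 in OPM2 and 1.85 in H929 (mean -2.11, exact p 0.005, the smallest possible, adjusted p 0.025). The ratio of NME1 to NME2 was 0.461, 0.334 and 0.505 in OPM2 with dBRD9-A, against 0.507, 0.576 and 0.55 with DMSO. In H929 it was 0.595, 0.538 and 0.62 with dBRD9-A, against 0.606, 0.665 and 0.725 with DMSO. Its mean log2 change was -0.27 (exact p 0.015, adjusted p 0.0375), with overlap in H929, and the call was lost without any OPM2 DMSO library (adjusted p 0.075 to 0.125), H929 DMSO replicate 2 or 3 or H929 dBRD9-A replicate 1 or 2 (adjusted p 0.0625 to 0.0875), or OPM2 dBRD9-A replicate 2 (mean -0.18, adjusted p 0.05).

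The PRPS1 to PRPS2 ratio moved in H929, at 3.34, 3.61 and 3.22 with dBRD9-A against 2.24, 2.13 and 2.27 with DMSO. In OPM2 it was 1.45, 0.929 and 1.55 with dBRD9-A, against 1.29, 1.31 and 1.32 with DMSO, so that OPM2 dBRD9-A replicate 2 lay below and its group mates above the DMSO libraries. Over both lines the mean log2 change was 0.29 (exact p 0.06, adjusted p 0.075), and without OPM2 dBRD9-A replicate 2 it was 0.40 (exact p 0.005, adjusted p 0.0125). The IMPDH2 to IMPDH1 ratio was 3.88, 7.5 and 3.3 in OPM2 with dBRD9-A, against 3.31, 3.49 and 3.17 with DMSO. In H929 it was 8.72, 8.82 and 9.07 with dBRD9-A, against 8.8, 8.19 and 7.81 with DMSO. Its mean log2 change of 0.28 did not pass the test (exact p 0.04, adjusted p 0.0667) and was 0.11 without OPM2 dBRD9-A replicate 2, but it passed without OPM2 dBRD9-A replicate 3 (0.40, adjusted p 0.0167) or H929 DMSO replicate 1 (0.31, adjusted p 0.0417). The PPAT to PAICS ratio of the neighbours on chromosome 4 was 0.167, 0.141 and 0.164 in OPM2 with dBRD9-A, against 0.155, 0.15 and 0.162 with DMSO. In H929 it was 0.234, 0.188 and 0.242 with dBRD9-A, against 0.216, 0.265 and 0.247 with DMSO. The groups overlapped in both lines, with a mean log2 change of -0.06 (exact p 0.5, adjusted p 0.5), which does not show that the genes changed equally.

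**Figure D4:**
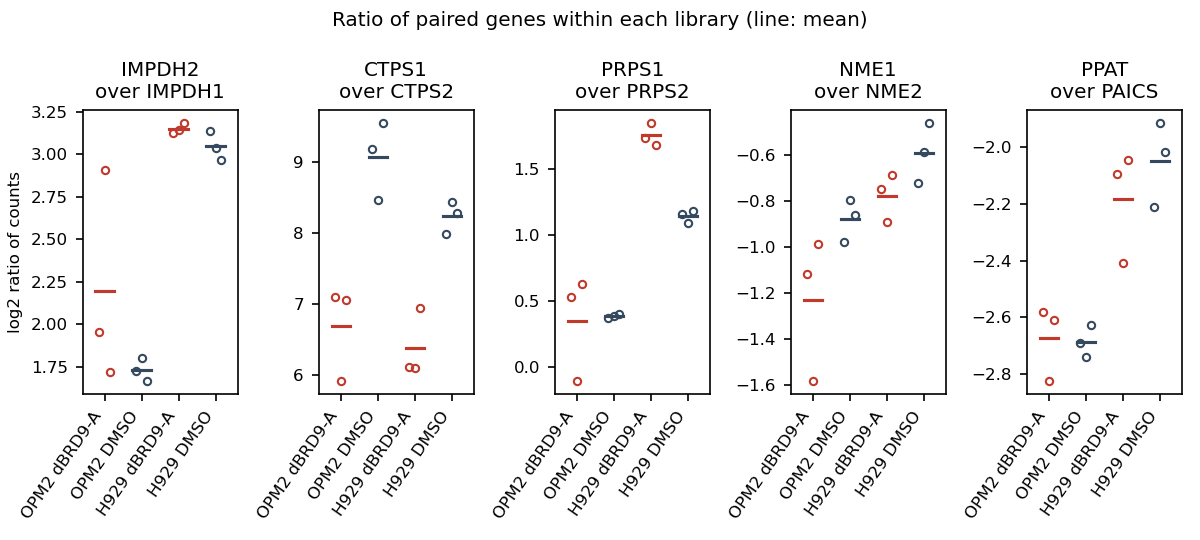
Each panel gives the log2 ratio of counts of 2 paired genes in every library, with dBRD9-A in red left of DMSO in dark blue within each line and lines at group means; the vertical axes differ. The CTPS1 to CTPS2 ratio is lower in all 6 libraries with dBRD9-A, and the PRPS1 to PRPS2 ratio is higher with dBRD9-A in H929 while OPM2 dBRD9-A replicate 2 lies lowest in OPM2.

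The difference of the responses, H929 minus OPM2, was tested for every gene, and none of the 32 was called, against 0.579% of all genes. At an unadjusted p under 0.05 in the same edgeR test there were 2, PRPS1 and DHODH. The share of all genes at that threshold was not taken, so this count shows no difference of the responses. For PRPS1 the responses differed by 0.50 on the log2 scale (SE 0.13, edgeR adjusted p 0.16), a value that DESeq2 (adjusted p 0.000193), limma-voom with a weight per library (0.00545) and the fit without OPM2 dBRD9-A replicate 2 (0.0166) called, and the adjusted p ranged up to 0.365 over the alternatives. For DHODH the difference was -0.51 (SE 0.19, edgeR adjusted p 0.419). So genes called in 1 line only, such as PFAS, IMPDH1, GART and CAD, were not shown to respond differently in the lines.

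Without dBRD9-A, APRT and SHMT1 were lower and AK4 was higher in H929 than in OPM2. Between lines in DMSO 3 of the 32 genes were called with a log2 difference of 1 or more in either direction, against 36.3% of all genes. APRT was lower in H929, at 79.8, 78.4 and 67.7 CPM with DMSO, than in OPM2, at 158, 162 and 146 CPM (log2 -1.05, SE 0.26, edgeR adjusted p 0.0038). SHMT1 was lower in H929 too, at 47.1, 47.3 and 48 CPM against 113, 92.9 and 123 CPM in OPM2 (log2 -1.21, SE 0.18, edgeR adjusted p 8.23e-05). AK4 was the reverse, with 7.64, 7.51 and 5.49 CPM in H929 and 0.11, 0.0548 and 0.013 CPM in OPM2, where it had 7, 4 and 1 counts. It passed the low-count filter only through its H929 libraries. Its call between lines therefore adds no support to these levels, and no fold change is given. On a scale per transcript length, NME2, IMPDH2, PAICS, APRT and NME1 were the 5 highest of the 32 in OPM2 with DMSO, at 173 ± 14.7 to 395 ± 13.8 TPM (SD, n = 3). In H929 with DMSO IMPDH2 was the highest at 376 ± 22.5 TPM, followed by NME2 at 315 ± 34 TPM, NME1 at 167 ± 6.54 TPM and PAICS at 152 ± 8.88 TPM, and the ranges of NME1 and PAICS were close. The scarcest were CTPS2, at 0.146 ± 0.00463 TPM in H929 and 0.0843 ± 0.0368 TPM in OPM2, and AK4, at 0.903 ± 0.128 TPM in H929 and 0.00875 ± 0.00714 TPM in OPM2.

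**Figure D5:**
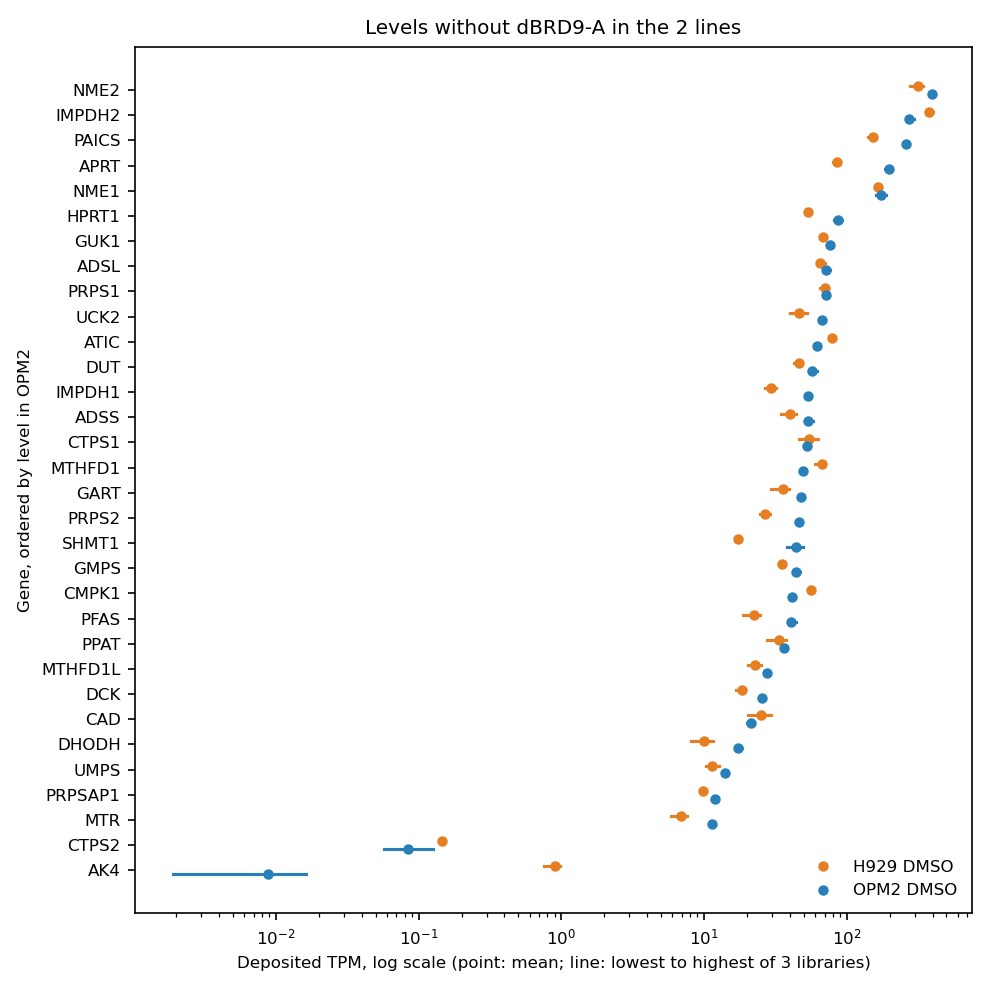
Deposited TPM of the 32 genes with DMSO, on a log axis, as the mean (point) and the lowest to highest of 3 libraries (line), H929 in orange above OPM2 in blue, ordered by the OPM2 level. AK4 lies far apart at 0.903 TPM in H929 and 0.00875 TPM in OPM2, and APRT and SHMT1 are higher in OPM2.

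Other genes of nucleotide and folate metabolism, 77 tested of 90 listed, were read in the same fit. In OPM2 16 fell and 5 rose, and in H929 11 fell and 4 rose, with medians of -0.19 and -0.14 against 0.03 and 0.00 over all genes. Of all genes tested 7.34% fell and 10.1% rose in OPM2 and 5.67% fell and 7.33% rose in H929, so the numbers that rose were no more than the share over all genes gives. Without OPM2 DMSO replicate 1, 2 or 3 the number that fell in OPM2 was 6, 8 and 6, against 3.24 to 3.64% of all genes. Without OPM2 dBRD9-A replicate 2 the number that fell was 26 of 79 tested in either line, against 15.6% of all genes in OPM2 and 16.5% in H929. Ribose supply and nucleoside uptake held 4 of these falls in OPM2 and 3 in H929 of 12 genes. SLC29A1, the main equilibrative nucleoside transporter, averaged 83.8 CPM with dBRD9-A and 171 CPM with DMSO in OPM2 (log2 -1.03, SE 0.20, edgeR adjusted p 0.005) and 63.1 CPM with dBRD9-A and 138 CPM with DMSO in H929 (log2 -1.13, SE 0.20, adjusted p 0.00378). RPIA, which makes ribose 5-phosphate, fell by 0.94 in OPM2 (edgeR adjusted p 0.00552) and by 1.03 in H929 (adjusted p 0.00412) on the log2 scale. TKT, a transketolase, and SLC29A3, a lysosomal nucleoside transporter, fell in OPM2 (log2 -0.79 and -0.49, or -0.59 and -0.43 without replicate 2) and not in H929 (-0.39 and -0.10).

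In folate metabolism 6 of 16 genes fell and 1 rose in OPM2, and 3 fell and 1 rose in H929. SLC19A1, the reduced folate carrier, had log2 fold changes of -1.31 in OPM2 (edgeR adjusted p 0.0227; -0.95 without replicate 2) and -1 in H929 (adjusted p 0.0748). SHMT2, the mitochondrial partner of SHMT1, had -1.11 in OPM2 (edgeR adjusted p 0.0226), -0.78 there without replicate 2 (adjusted p 0.000348), and -0.50 in H929 (adjusted p 0.301). AMT, of the glycine cleavage system, rose in OPM2 at a very low level (0.362 CPM with dBRD9-A and 0.125 CPM with DMSO). Of 8 deoxynucleotide genes RRM2, the regulated subunit of ribonucleotide reductase, fell in both lines (log2 -0.46 and -0.50), and SAMHD1, which breaks down dNTPs, rose in H929 (log2 0.87, edgeR adjusted p 0.000609) with 0.31 in OPM2 (adjusted p 0.0658). Without OPM2 dBRD9-A replicate 2 SAMHD1 was called in OPM2 too (log2 0.30, edgeR adjusted p 0.0309).

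Of 12 further kinases AK7, an adenylate kinase, rose in OPM2 at 0.475 CPM with dBRD9-A and 0.155 CPM with DMSO (edgeR adjusted p 0.0437, lost without replicate 2 at 0.0726). In pyrimidine salvage and breakdown, with 13 genes, DCTPP1, which hydrolyses dCTP, fell in both lines (log2 -0.82 and -1.04), TK2, the mitochondrial thymidine kinase, fell in OPM2 (-1.08) and had -0.35 in H929, and UPB1, of pyrimidine breakdown, rose in both lines at a low level (1.24 CPM with dBRD9-A and 0.355 CPM with DMSO in OPM2, and 0.469 CPM with dBRD9-A and 0.0885 CPM with DMSO in H929). In purine salvage and breakdown, with 15 genes, AMPD3, an AMP deaminase, rose in both lines (log2 1.29 in OPM2, edgeR adjusted p 0.00224, and 1.22 in H929, adjusted p 0.00314). AMPD1, its paralogue, fell in H929, to 381 CPM with dBRD9-A against 780 CPM with DMSO (log2 -1.04, edgeR adjusted p 0.00206), and had -0.11 in OPM2. AMPD2 fell in OPM2 (-0.70, against -0.44 in H929), and NT5E, the ecto-nucleotidase CD73, rose in OPM2 at under 1 CPM (1.13, against 0.71 in H929). ADSSL1, the muscle isozyme of adenylosuccinate synthase, was called in neither line (log2 0.95 in OPM2 and 0.64 in H929), but in both without OPM2 dBRD9-A replicate 2 (log2 1.32, edgeR adjusted p 0.00632, in OPM2 and log2 0.67, adjusted p 0.0399, in H929). Of these genes, SLC19A1, SHMT2, AMT, TKT, TK2, AMPD2 and NT5E also passed the test in H929, in the direction they had in OPM2, when OPM2 dBRD9-A replicate 2 was left out (edgeR adjusted p 0.000161 to 0.0113). The difference of the responses, H929 minus OPM2, was called for none of the genes named here with all libraries, and without that library for SAMHD1 (0.61, edgeR adjusted p 0.0198), TK2 (0.59, adjusted p 0.0253) and AMPD1 (-0.74, adjusted p 0.042).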

How the data were processed

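Per the labels' protocols, RNA from a Qiagen kit was made into stranded mRNA libraries. Reads were aligned and counted with tools that include STAR and featureCounts on hg19 and GRCh37, per the submitters' processing notes, whose versions are not listed. Whether the counting used strand is unknown here, and reads of overlapping or antisense genes may not be separable. Per the file headers, each file holds count, FPKM and TPM columns for 51780 RefSeq transcripts. The deposited count column is raw and whole. The deposited FPKM values served only to recover transcript length, and the deposited TPM values, which the authors scaled to 1 fixed sum in every library, gave levels per length in DMSO.

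Each symbol was represented by its transcript with the highest mean count. Genes were filtered with filterByExpr, which left 16408 genes, scaled with TMM factors and fitted with edgeR 4.0.16 in R 4.3.3, with a mean per group and 8 residual degrees of freedom. CPM values are scaled by these factors. Adjustment was by Benjamini-Hochberg over all genes tested, and adjusted p-values under 0.05 were called. The genes and lists were chosen with earlier results of these data known. Every member was accounted for, and values in every library were given for members called in a treatment comparison, up to 18 by adjusted p, both genes of each pair and members called between lines. Of other nucleotide genes up to 4 called per sublist are named, by fold change, and some that this rule would name are not reported here. Alternatives were RLE factors, library size alone, DESeq2 1.42.0, limma-voom (limma 3.58.1), other low-count filters, each line alone, a replicate block, removal of a trend with GC content (known for 98.39% of genes) or length, the sum over transcripts and each library left out. The script was tested on simulated data with the same spread for all genes and no library that stood apart. That simulation did not test the effect of a library such as OPM2 dBRD9-A replicate 2. Intervals are at 95%.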

Additional observations from a re-analysis of the deposited data

How the results depend on the processing

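Counts of genes called with dBRD9-A against DMSO moved most with the samples in the fit and with the test. With each line fitted alone, 9 of the 32 genes fell and 0 rose in OPM2, where 2.14% of all genes fell, 20 fell and 1 rose in H929, where 17.2% fell, and 6 and 25 of the other nucleotide genes fell in OPM2 and H929. With limma-voom 21 fell and 1 rose in H929, where 18.6% of all genes fell, and 19 fell in both lines. Of the other genes 29 fell in OPM2, where 20.9% of all genes fell, and 28 in H929. With the GC trend removed 20 of the other genes fell in H929, where 10.8% of all genes fell. In that fit 6 of the 32 were called between the lines, which added CTPS2, IMPDH1 and PFAS. The share of all genes called between the lines was 36.3% in the main fit. It was not taken for any alternative fit, nor was the share called for the difference of the responses. DESeq2 and limma-voom each called 1 gene, PRPS1, for the difference of the responses. With a library left out, 9 to 21 of the 32 fell and 0 to 1 rose in OPM2, 7 to 22 fell and 0 to 1 rose in H929, 6 to 18 fell in both, 0 to 1 were called for the difference, and 6 to 26 of the other genes fell in OPM2 and 5 to 26 in H929. Over these fits 3.24 to 15.6% of all genes fell in OPM2 and 1.38 to 16.5% in H929. The log2 ratio changes ranged from 0.106 to 0.402 for IMPDH2 over IMPDH1, from -0.328 to -0.179 for NME1 over NME2 and from 0.219 to 0.404 for PRPS1 over PRPS2. The cause of these moves was not tested.

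Replicate numbers did not pair the libraries: same-numbered libraries had correlations of deviations of 0.30, -0.02 and -0.12 in OPM2 and of -0.12, -0.17 and -0.12 in H929. In H929 differently numbered libraries had higher ones. These were 0.648 for dBRD9-A replicate 1 with DMSO replicate 3, 0.521 for replicate 2 with 1 and 0.703 for replicate 3 with 2. No fit used that matching, and its origin was not tested. With the replicate number as a block, 13 genes fell and 1 rose in OPM2, where 5.27% of all genes fell. In H929 12 fell, against 3.94% of all genes, and 10 fell in both lines. With that block the ratio changes of -2.113 for CTPS1 over CTPS2 and -0.267 for NME1 over NME2 had an adjusted p of 0.0781, with fewer relabellings possible. With the block and the GC trend removed, 1 gene rose in H929, 6 were called between lines and 18 of the other genes fell in H929, where 9.84% of all genes fell.

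Genes without a call changed sign under some settings, and no called gene did in any of 24 alternatives. In OPM2 these were ADSS (0.053 with the length trend removed), PRPSAP1 (0.04 with limma-voom), HPRT1 (0.008 with RLE factors and with library size alone, 0.007 with DESeq2, 0.022 with the 1 CPM filter, 0.101 with the length trend removed), DCK (-0.068 with limma-voom), NME2 (0.159 with the GC trend removed, 0.01 with the block as well) and CMPK1 (-0.182 with limma-voom, -0.014 with the GC trend removed, -0.027 with the block as well). In H929 these were PRPS1 (0.014 with library size alone), PRPSAP1 (0.04 with library size alone, 0.001 with the length trend removed) and APRT (0.007 with RLE factors and with DESeq2, 0.064 with library size alone, 0.009 with the 1 CPM filter, 0.029 with the GC trend removed, 0.026 with the block as well, 0.035 with the length trend removed). With a library left out the OPM2 values ranged from -0.232 to 0.029 for ADSS, -0.251 to 0.443 for CMPK1, -0.136 to 0.43 for DCK, -0.167 to 0.054 for HPRT1, -0.237 to 0.047 for MTR, -0.24 to 0.026 for PRPSAP1 and -0.107 to 0.237 for SHMT1. In H929 they ranged from -0.181 to 0.127 for APRT, -0.059 to 0.095 for DCK and -0.101 to 0.036 for PRPSAP1. Library size alone moved the median of all genes to 0.07 in OPM2 and 0.09 in H929. The low counts of CTPS2, and of AK4 in OPM2, limit their precision.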

Other observations

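The share of a second transcript form was read for 4 of the genes, MTHFD1L, CMPK1, GART and CTPS1, chosen after values were seen. The short MTHFD1L transcript NM_001242769 had 14.2% of the counts of the long form in OPM2 dBRD9-A replicate 2, against 25.6 to 30.4% in the other 11 libraries. The short CMPK1 transcript NR_046395 had 4.05% there, against 8.89 to 13.2% elsewhere. The short GART transcript NM_175085, which encodes the GARS domain alone, had 70.7 to 79.1% of the counts of the long form over all 12 libraries, and the CTPS1 transcript NM_001301237 had 81.6 to 86.2%. The forms overlap and the files do not say how reads they share were counted, so these shares need not add up.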
